A study of Mus musculus with 20 samples.

Results

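Liver RNA of mice given lipid nanoparticles with siRNA against Eif3m was compared at day 9 with liver RNA of mice given a scrambled luciferase siRNA. The 6 libraries were chosen by their labels, as all RNA-seq libraries of day 9, and make up 6 of the 20 libraries of the series. The series holds RNA and ribosome footprints of liver at days 9 and 13. All animals were FVB/N mice of 6 to 8 weeks when injected, and both groups received particles through the tail vein at 0.5 mg/kg, with 1 injection in 5 days. The control group (n = 3) and the Eif3m group (n = 3) therefore differed only in the siRNA they carried, as far as the labels say. Sex and the number of injections before day 9 are not given there. No uninjected mice are among the samples, so what the particles themselves do is shared by both groups. Knockdown came from injected particles, not from a deletion in one cell type, and RNA was purified from ground liver. A value is therefore a mixture of hepatocytes, the main liver cell, and all other cells of the organ, in which fewer cells of a type and less RNA per cell cannot be told apart.

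Translation initiation factor eIF3 is a complex of many subunits that binds the small ribosomal subunit and helps it to load mRNA and to find the start codon. Eif3m is among its smaller core subunits. When initiation or ribosome assembly is disturbed, cells are known to switch on the integrated stress response, in which ATF4 and CHOP drive stress genes, and the p53 pathway, in which MDM2 no longer restrains p53 and the cell cycle inhibitor p21 is made. In liver, hepatocytes also devote a large part of their RNA to secreted plasma proteins, to lipid synthesis under the SREBP factors and to enzymes that clear drugs and bile acids.

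Total counts per library were 27366965 to 37757684 in the controls and 34746050 to 39016524 with Eif3m siRNA. The deposited values are expected counts, and CPM below means counts per 1000000 counts after scaling, a level per library that is not divided by gene length. Principal components were computed only on the genes that varied most among these 6 libraries. The first, with 64.9% of the variance of those genes, separated the siRNA groups. Libraries of the same group had Pearson r between 0.989 and 0.995 on log2 CPM across genes, which are not independent replicates. Albumin, the main hepatocyte marker, took 12.3% to 13.0% of the counts of a control library and 10.1% to 10.6% of those of an Eif3m library. All 10 hepatocyte markers tested were present in every library, and their sum was 192500 to 205200 CPM in the controls and 159300 to 169700 CPM with Eif3m siRNA. Alb and Ttr, 2 of these markers, fell, and the other 8 did not pass the test. The labels name no batch among these 6 libraries.

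Eif3m RNA was low in every Eif3m siRNA library. It stood at 81.6, 79.5 and 80.7 CPM in the controls and 8.96, 7.93 and 8.24 CPM with Eif3m siRNA. The groups did not overlap, and the log2 change was -3.27 (SE 0.081, adjusted p = 8.34e-08) in edgeR's quasi-likelihood test. This is a 9.62-fold lower level in liver as a whole. Other subunits of the complex went the other way or did not pass. Of 14 subunits tested, 7 rose, 1 fell (Eif3m itself) and 6 did not pass, beside 23.2% of all 14834 tested genes that were called at an adjusted p below 0.05. Eif3a, the large scaffold subunit, stood at 209, 213 and 184 CPM in the controls and 259.6, 303 and 278 CPM with Eif3m siRNA, a log2 change of 0.47 (SE 0.092, adjusted p = 0.00686). Eif3c, a core subunit, changed by 0.47 (SE 0.090, adjusted p = 0.0065) and Eif3g, an RNA-binding subunit, by 0.43 (SE 0.079, adjusted p = 0.00547). Eif3b and Eif3e changed by 0.36 (adjusted p = 0.0132) and 0.27 (adjusted p = 0.0193). Eif3j1 and Eif3j2, near-identical copies whose reads cannot be told apart with certainty, changed by 0.50 and 0.49. The 6 that did not pass lay between 0.10 for Eif3l and 0.21 for Eif3f, whose adjusted p was 0.051. Scaled by library totals alone, 13 subunits rose. With the 4 day 13 RNA libraries, which were made with another kit, in the same fit, 2 rose, Eif3j1 and Eif3j2. The Eif3b call was lost without control replicate 2 (adjusted p = 0.051), and the Eif3e call without control replicate 2 or 3 or Eif3m replicate 1 or 3 (adjusted p between 0.0503 and 0.0646).

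Changes were spread over a large part of the transcriptome, and most were small. Of 14834 tested genes, 1562 rose (10.5%) and 1883 fell (12.7%), and 5441 had an unadjusted p below 0.05. The control and Eif3m values did not overlap in 6259 genes (42.2%), 3435 of them among the 3445 called. A lack of overlap in a called gene below is therefore a description and adds no further support. A change of at least 2-fold was found for 252 rises and 260 falls, and of at least 4-fold for 45 and 40. Abundant mRNAs fell more often than they rose. Among 128 genes with a mean of 1000 CPM and over, 17 rose and 51 fell, and among 1136 genes of 100 to 1000 CPM, 178 rose and 373 fell. The 12.7% of all tested genes that fell is therefore not a background matched for abundance for the lists below. Genes that rose held between 9.54% and 10.0% of a control library's counts and between 15.4% and 16.4% of an Eif3m library's. Genes that fell went from between 41.2% and 42.6% to between 31.1% and 33.5%. These shares follow from the calls themselves and describe where the counts lay. Pseudogenes stood apart in direction, with 44 rises and 8 falls among 142. A pseudogene can share reads with its parent gene, so these counts are uncertain. Scaling by library totals alone gave 2810 rises and 1107 falls and moved the median log2 change of all genes from 0.0004 to 0.13, so small falls depend on the scaling and all changes here are relative to the TMM-scaled median. With the day 13 libraries in the fit, 932 genes were called (407 rises, 525 falls), 919 of them among the 3445. Without control replicate 3 the count was 2182, without Eif3m replicate 1 it was 2273 and without Eif3m replicate 2 it was 2288.

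**Figure D1:**
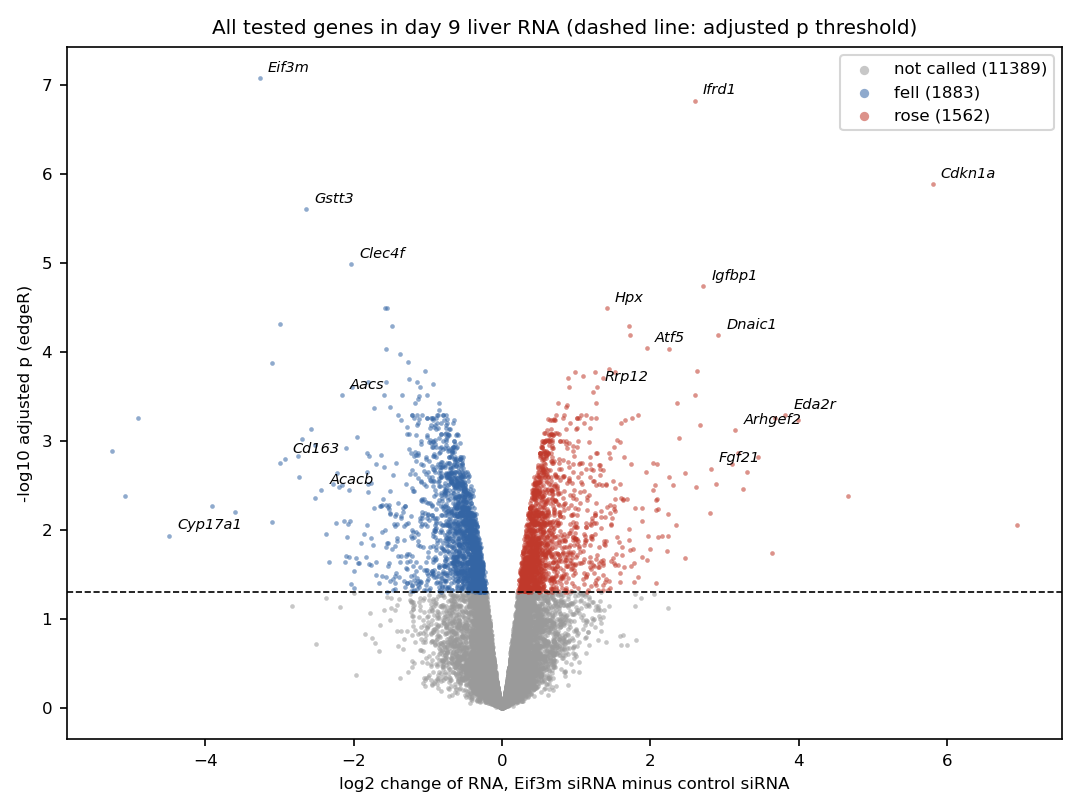
Log2 change of RNA (x axis, Eif3m siRNA minus control) against -log10 of the edgeR adjusted p (y axis) for the 14834 tested genes, with 1562 rises in red, 1883 falls in blue and the rest in grey. Eif3m is the fall with the smallest adjusted p and Ifrd1 the rise with the smallest.

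Among the largest rises of genes with a mean of at least 5 CPM were regulators of stress, growth and the cytoskeleton. Arhgef2, an exchange factor that activates RhoA, stood at 4.52, 4.28 and 4.86 CPM in the controls and 31.1, 57.0 and 32.6 CPM with Eif3m siRNA, a log2 change of 3.15 (SE 0.26, adjusted p = 0.00075). Ifrd1, a transcriptional co-regulator, stood at 14.6, 15 and 15.4 CPM in the controls and 92.3, 87.3 and 93.0 CPM with Eif3m siRNA, a change of 2.60 (SE 0.074, adjusted p = 1.48e-07). Igfbp1, a secreted binding protein for insulin-like growth factors, stood at 4.56, 3.32 and 3.18 CPM in the controls and 25.1, 25.2 and 21.8 CPM with Eif3m siRNA, a change of 2.71 (SE 0.14, adjusted p = 1.82e-05). For these 3 genes a lack of overlap between groups was a condition of the choice, and Arhgef2 varied widely among the Eif3m libraries. Dnaic1, a dynein chain of motile cilia, changed by 2.91 (SE 0.19, adjusted p = 6.4e-05) and Slc25a33, a mitochondrial pyrimidine nucleotide carrier, by 1.71 (SE 0.11, adjusted p = 5.02e-05). Serpina7, the thyroxine-binding globulin, changed by 1.66 (SE 0.17, adjusted p = 0.000581) and the adhesion molecule Vcam1 by 1.60 (SE 0.17, adjusted p = 0.000623). Gvin1, an interferon-inducible GTPase, changed by 1.63 (SE 0.26, adjusted p = 0.00449). The rest of the 15 largest rises are taken up with the groups below.

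The largest falls of such genes were led by Cyp17a1, a steroid hydroxylase. It stood at 91.1, 168 and 283 CPM in the controls and 4.72, 13.3 and 6.03 CPM with Eif3m siRNA, a log2 change of -4.48 (SE 0.67, adjusted p = 0.0116). Control levels of Cyp17a1 varied widely among themselves, and all were still far above the Eif3m values. Ugt1a5, a glucuronosyltransferase that shares exons with the rest of the Ugt1a cluster, changed by -2.75 (SE 0.28, adjusted p = 0.00149). Dct, which encodes dopachrome tautomerase, stood at 20.4, 20.8 and 23.9 CPM in the controls and 5.14, 2.29 and 3.95 CPM with Eif3m siRNA, a change of -2.52 (SE 0.25, adjusted p = 0.00111). Lect1, which encodes chondromodulin, changed by -2.20 (SE 0.31, adjusted p = 0.00331) and the kinase gene Mapk15 by -1.82 (SE 0.33, adjusted p = 0.00893). The Mapk15 call was lost with no filter on low counts (adjusted p = 0.0532). The remaining 10 of the 15 largest falls were Eif3m, 5 genes of lipid synthesis, Gstt3, Mt1 and the Kupffer cell genes Clec4f and Vsig4.

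**Figure D2:**
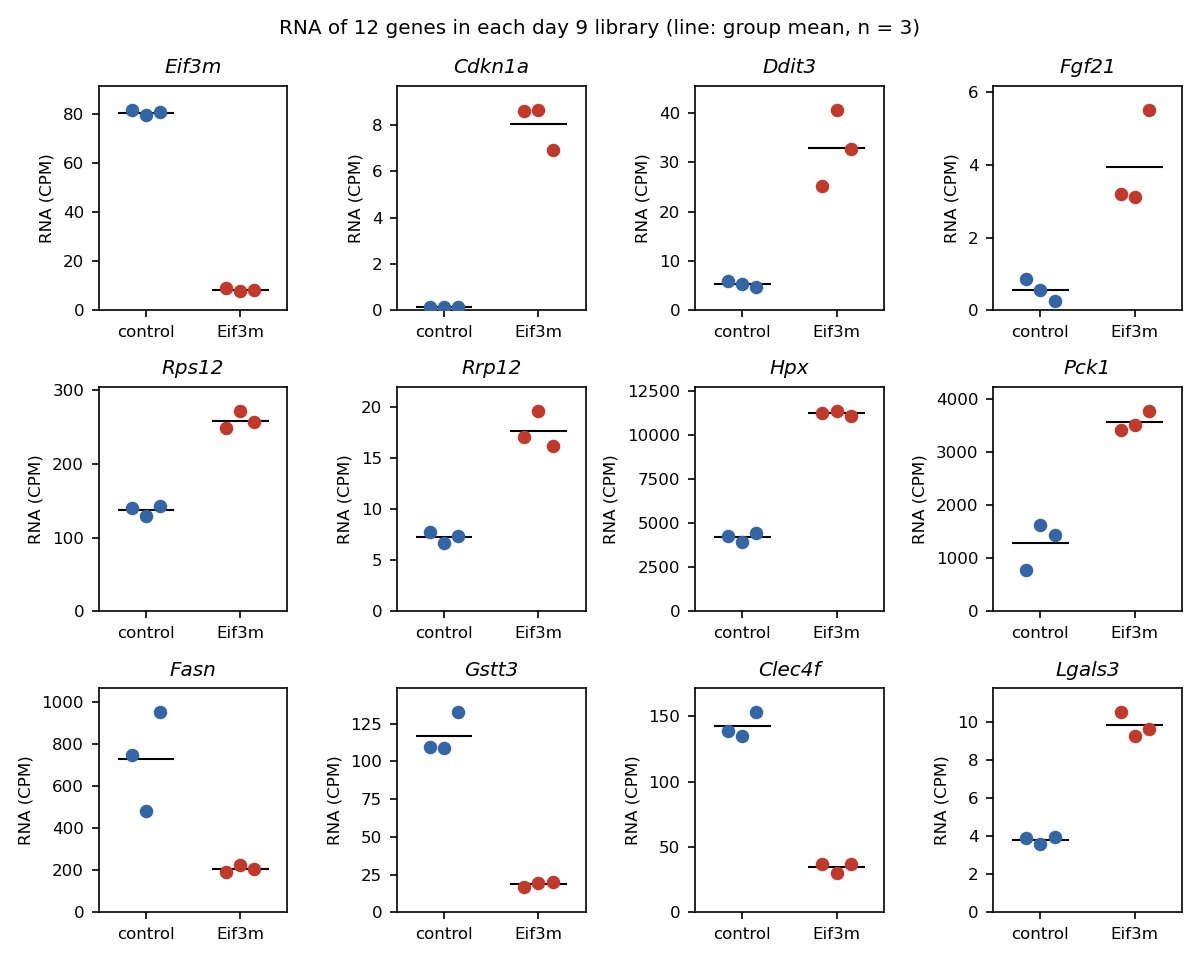
RNA level (CPM, linear axis from 0) of 12 genes in the 3 control and 3 Eif3m libraries, with a line at each group mean. In all 12 panels the groups do not overlap; Eif3m, Fasn, Gstt3 and Clec4f are lower with Eif3m siRNA and the other 8 are higher.

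More targets of p53 rose than fell with Eif3m siRNA, and p21 had the largest change among those named. Of 33 p53 targets tested, 19 rose, 2 fell and 12 did not pass, with a median log2 change of 0.69 beside 0.0004 over all tested genes. Cdkn1a, which encodes p21, an inhibitor of the cyclin-dependent kinases, stood at 0.151, 0.138 and 0.134 CPM in the controls and 8.60, 8.64 and 6.90 CPM with Eif3m siRNA. Its 3 controls held 13 counts in all, and its log2 change was 5.80 (SE 0.22, adjusted p = 1.29e-06). Aen, a p53-induced nuclease, stood at 8.97, 9.45 and 11.1 CPM in the controls and 29.0, 33.4 and 35.5 CPM with Eif3m siRNA, a change of 1.73 (SE 0.12, adjusted p = 6.4e-05). Ccng1, cyclin G1, stood at 18.7, 21.4 and 19.4 CPM in the controls and 40.4, 41.1 and 45.5 CPM with Eif3m siRNA, a change of 1.09 (SE 0.088, adjusted p = 0.000184). Bax, which opens the outer mitochondrial membrane in apoptosis, stood at 16.6, 14.6 and 14.1 CPM in the controls and 29.9, 26.0 and 29.6 CPM with Eif3m siRNA, a change of 0.92 (SE 0.099, adjusted p = 0.000622). In each of these the lowest Eif3m library was above the highest control. Eda2r and Tnfrsf10b, both of the TNF receptor family, were near the limit of detection in controls and changed by 3.82 (SE 0.38, adjusted p = 0.000513) and 2.67 (SE 0.29, adjusted p = 0.000664). Trp53inp1, which promotes p53 activity and autophagy, changed by 2.39 (SE 0.23, adjusted p = 0.000925). Targets that fell were Bbc3, the pro-apoptotic protein PUMA, and Sesn1, a stress-induced inhibitor of mTORC1. Bbc3 stood at 6.60, 4.31 and 4.12 CPM in the controls and 1.05, 1.53 and 1.65 CPM with Eif3m siRNA, a change of -1.82 (SE 0.24, adjusted p = 0.00136), opposite to Bax. Sesn1 changed by -0.60 (adjusted p = 0.0109), a call lost with the day 13 libraries in the fit (adjusted p = 0.105). With only genes of at least 5 CPM tested, 10 of the targets rose.

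Genes of cell cycle progression rose more often than they fell. Of 45 genes of the S, G2 and M phases tested, 12 rose, 2 fell and 31 did not pass. Top2a, the topoisomerase of dividing cells, stood at 1.32, 0.580 and 0.771 CPM in the controls and 5.27, 3.12 and 2.75 CPM with Eif3m siRNA, a log2 change of 2.09 (SE 0.35, adjusted p = 0.00445). Mki67, the proliferation marker Ki-67, stood at 1.77, 1.30 and 1.98 CPM in the controls and 7.15, 4.08 and 3.98 CPM with Eif3m siRNA, a change of 1.60 (SE 0.27, adjusted p = 0.00437). Kif23, a kinesin of cytokinesis, changed by 2.04 (SE 0.28, adjusted p = 0.00178). These mRNAs were rare in every library, at most 7.15 CPM among the 3. Tk1, thymidine kinase, was more abundant and fell from 33.2, 35.1 and 35.9 to 19.6, 14.6 and 19.1 CPM, a change of -0.97 (SE 0.12, adjusted p = 0.00097). The count of rises was 5 without control replicate 3 and without Eif3m replicate 1, and 7 without control replicate 2. It was 2 among genes of at least 5 CPM and 4 with the day 13 libraries in the fit. Of 29 G1 regulators tested, 6 rose and 6 fell. The falls were 3 without control replicate 2 or Eif3m replicate 2 and among genes of at least 5 CPM, and 1 with the day 13 libraries. Gadd45a, a growth arrest and DNA damage gene, changed by 1.20 (SE 0.12, adjusted p = 0.000558) and the inhibitor Cdkn2c by -0.91 (SE 0.19, adjusted p = 0.00972). Only 11 of 26 replication-dependent histone genes had enough counts to be tested. Most of their mRNAs are known to lack a poly(A) tail, and the libraries were made by mRNA capture; its part in the low counts was not tested. Of those 11, 7 rose, among them Hist1h4h at 1.45 (adjusted p = 0.00529) and Hist1h1c, a linker histone, at 0.74 (adjusted p = 0.00342). The histone rises were 3 with the day 13 libraries in the fit and 1 among genes of at least 5 CPM.

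The integrated stress response was represented by a rise of its transcription factors and of 2 secreted hormones. Of 28 genes tested, 11 rose, 1 fell and 16 did not pass, with a median of 0.48. Ddit3, which encodes CHOP, stood at 5.96, 5.33 and 4.66 CPM in the controls and 25.2, 40.5 and 32.7 CPM with Eif3m siRNA, a log2 change of 2.63 (SE 0.18, adjusted p = 0.000164). Atf5, a relative of ATF4, stood at 213, 185 and 231 CPM in the controls and 672, 933 and 828 CPM with Eif3m siRNA, a change of 1.95 (SE 0.13, adjusted p = 8.99e-05). The stress hormone Fgf21, made by the liver in starvation and amino acid shortage, stood at 0.867, 0.553 and 0.268 CPM in the controls and 3.20, 3.12 and 5.50 CPM with Eif3m siRNA, a change of 2.82 (SE 0.38, adjusted p = 0.00205). No group overlapped in these 3 genes, although Fgf21 rested on few counts. Gdf15, a hormone that lowers appetite and is also on the p53 list, stood at 2.75, 2.79 and 3.28 CPM in the controls and 6.37, 9.39 and 10.1 CPM with Eif3m siRNA, a change of 1.55 (SE 0.19, adjusted p = 0.000968). Cebpg, a partner of ATF4, changed by 1.01 (SE 0.10, adjusted p = 0.000558) and Atf3, a factor induced downstream, by 1.49 (SE 0.23, adjusted p = 0.0028). Trib3, a pseudokinase that dampens the response, changed by 1.72 (SE 0.30, adjusted p = 0.00989). The member that fell was Shmt2, the mitochondrial serine hydroxymethyltransferase, from 202, 174 and 188 to 110.5, 89.0 and 103 CPM, a change of -0.90 (SE 0.098, adjusted p = 0.000657). With the day 13 libraries in the fit, 7 rose, and the Trib3 call was lost with no filter on low counts (adjusted p = 0.0541).

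ATF4 with a C/EBP partner binds a composite element, and the letters TGATGNAAN were searched on both strands in the 250 bases before each RefSeq start (GRCm38.p6). They were found in 7 of 26 stress response genes with a listed promoter (26.9%), in 3.89% of all 27025 genes with one and in 2.61% of tested genes. Among the 12 called members 2 hold a match, Fgf21 and Atf3, and both rose. The promoter stretches, read 5′ to 3′ along the gene with the match in capitals, lie at chr7:45615582-45615670 on the minus strand and at chr1:191183396-191183484 on the minus strand, and are shown as the matches found in list members that rose. They begin 140 bases (Fgf21) and 111 bases (Atf3) before the start.
Fgf21: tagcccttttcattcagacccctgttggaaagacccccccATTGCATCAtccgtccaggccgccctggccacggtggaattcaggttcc
Atf3: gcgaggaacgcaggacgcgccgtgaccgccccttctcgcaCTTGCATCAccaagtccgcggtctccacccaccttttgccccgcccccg
A match of these letters is a description, and binding was not measured here.

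Most mRNAs of the translation machinery rose together, mostly by small amounts. Of 46 large-subunit ribosomal protein genes tested, 41 rose and 0 fell, with a median of 0.43, and of 32 small-subunit ones 30 rose and 0 fell, with a median of 0.52. Rps12 stood at 140.5, 129.8 and 142 CPM in the controls and 248, 271 and 256 CPM with Eif3m siRNA, a log2 change of 0.91 (SE 0.078, adjusted p = 0.000249). Rpl12 changed by 0.88 (SE 0.083, adjusted p = 0.000395), Rpl13a by 0.84 (SE 0.085, adjusted p = 0.000513) and Rps19 by 0.75 (SE 0.070, adjusted p = 0.000374). Values within each group were close together, and the lowest Eif3m library was above the highest control in all 4 genes. Of 17 elongation and poly(A)-binding factors, 13 rose and 1, the elongation inhibitor kinase gene Eef2k, fell (its log2 change was -0.78 (adjusted p = 0.00369)). Eef1a1, the factor that brings tRNA to the ribosome and one of the most abundant mRNAs that rose, went from 4461, 4616 and 4688 to 6636, 6560 and 6749 CPM, a change of 0.54 (SE 0.076, adjusted p = 0.00189). Rack1, a ribosome-bound scaffold, changed by 0.71 (SE 0.075, adjusted p = 0.000581) and the poly(A)-binding protein gene Pabpc4 by 0.78 (SE 0.094, adjusted p = 0.000988). Ribosomal protein genes have many processed pseudogene copies, so the split of their reads is uncertain. With the day 13 libraries in the fit, 11 large-subunit, 13 small-subunit and 5 elongation genes rose, and Eef1a1 did not pass (adjusted p = 0.073).

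Many of these mRNAs are known to start with a C followed by a run of pyrimidines, the 5′ TOP motif through which mTORC1 controls their translation. A C with at least 4 pyrimidines after it, beginning within 5 bases of the RefSeq start, was found in 28 of 58 ribosomal protein genes with a listed promoter (48.3%), in 21.2% of all genes with one and in 23.9% of tested genes. The starts of 3 ribosomal protein genes and Rack1 are printed with pyrimidines of the run in capitals, as examples of the run in mRNAs that rose. They lie at chr2:32961702-32961729 on the plus strand, chr7:45128728-45128755 on the minus strand, chr11:48800348-48800375 on the plus strand and chr14:24490665-24490692 on the plus strand (RefSeq, GRCm38.p6). Capitals begin at the matching C nearest the annotated start. They stop before the first base that is not a pyrimidine or at a set length, which only Rpl13a reached. Pyrimidines go on past them in Rpl13a and precede them in Rpl12, Rack1 and Rps24, so they do not mark the whole run.
Rpl12: agcaggatccgtCTTTTCggctttcggc
Rpl13a: cctgcgacaagaCCTCCTCCTTTCccag
Rack1: aggccgctctttCTTTTTCTCCacaggg
Rps24: cgcgctggggtcCTTCCTTgcgcgttga
Rps24 changed by 0.57 (SE 0.065, adjusted p = 0.000804) at the RNA level. RNA counts do not measure the control of translation that the motif is known for.

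Many factors that build ribosomes rose, and none tested fell. Of 50 small-subunit assembly factors 24 rose and 26 did not pass, and of 52 large-subunit assembly factors 31 rose and 21 did not pass, with medians of 0.26 and 0.38. Rrp12, a factor for export and maturation of pre-ribosomes, stood at 7.76, 6.72 and 7.44 CPM in the controls and 17.1, 19.6 and 16.2 CPM with Eif3m siRNA, a log2 change of 1.28 (SE 0.11, adjusted p = 0.000249). Nop56, a core protein of box C/D snoRNPs, changed by 1.11 (SE 0.12, adjusted p = 0.000623) and its partner Nop58 by 0.90 (SE 0.11, adjusted p = 0.00105). The nucleolar helicase Ddx21 stood at 31.0, 30.9 and 30.3 CPM in the controls and 58.8, 66.0 and 57.5 CPM with Eif3m siRNA, a change of 0.98 (SE 0.078, adjusted p = 0.000169). Npm1, nucleophosmin, changed by 0.63 (SE 0.079, adjusted p = 0.00111) and Nop2, an rRNA methyltransferase, by 0.68 (SE 0.084, adjusted p = 0.00104). Groups did not overlap in any of these 6. Of 16 genes of RNA polymerase I and its factors, 3 rose, led by Polr1a, its largest subunit, at 0.61 (SE 0.091, adjusted p = 0.00237). The called share was 18.8%, beside 23.2% of all tested genes called in either direction and 10.5% that rose. MYC binds the E-box CACGTG, which occurs before the start in 5 of 41 small-subunit and 3 of 42 large-subunit assembly genes with a listed promoter, beside 6.86% of all genes with one and 9.68% of tested genes. Nop2 is the example printed, at chr6:125131783-125131868 on the plus strand (RefSeq, GRCm38.p6). Its match is in capitals and reads the same on both strands.
Nop2: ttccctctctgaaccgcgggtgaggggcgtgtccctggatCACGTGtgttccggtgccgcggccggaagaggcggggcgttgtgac
With the day 13 libraries in the fit, 8 small-subunit and 12 large-subunit assembly genes rose.

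Initiation factors outside eIF3 were called less evenly. Of 30 tested, 10 rose and 1 fell, with a median of 0.19. Eif5, which triggers GTP hydrolysis at the start codon, stood at 82.2, 90.3 and 84.9 CPM in the controls and 129, 148 and 137 CPM with Eif3m siRNA, a log2 change of 0.68 (SE 0.080, adjusted p = 0.000857). Eif4g2, a relative of the eIF4G scaffold, changed by 0.68 (SE 0.094, adjusted p = 0.00168) and Eif1a, a factor for start codon scanning, by 0.59 (SE 0.093, adjusted p = 0.00285). The count was 17 rises under library totals, 5 without control replicate 2 and 4 with the day 13 libraries. Of 15 noncoding host genes of snoRNAs, whose spliced RNAs are degraded when they are translated, 5 rose and 0 fell. Gas5 stood at 31.9, 21.9 and 19.5 CPM in the controls and 57.6, 74.5 and 61.4 CPM with Eif3m siRNA, a change of 1.40 (SE 0.19, adjusted p = 0.00313). Snhg15, Snhg5 and Snhg12 changed by 2.36 (adjusted p = 0.000374), 1.59 (adjusted p = 0.00103) and 1.27 (adjusted p = 0.000558). Of 26 genes of mRNA decay, 4 rose and 2 fell, and of 20 cytosolic aminoacyl-tRNA synthetases 4 rose and 3 fell. The called shares were 23.1% and 35.0%, beside 23.2% of all tested genes, so the decay list was at the background. With the day 13 libraries in the fit, 0 genes of either list rose. Both counts of rises were 2 without control replicate 2 or 3 or Eif3m replicate 2 or 3. Among the synthetases Tars fell from 129, 114 and 129 to 74.8, 92.2 and 80.7 CPM, a change of -0.59 (SE 0.095, adjusted p = 0.00317). Of 26 cytosolic chaperones 10 rose and 1 fell. Hspa8, the constitutive HSP70, went from 1194, 1215 and 1300 to 2108, 1923 and 2149 CPM, a change of 0.74 (SE 0.084, adjusted p = 0.000804). The near-identical stress-induced copies Hspa1a and Hspa1b changed by 1.31 and 1.36. Of 30 endoplasmic reticulum folding genes 3 rose, 7 fell and 20 did not pass, with a median of 0.0041. Derl3, which exports misfolded proteins for degradation, changed by -1.64 (SE 0.30, adjusted p = 0.00545). That count of falls was 2 under library totals, where 8 rose, and 1 with the day 13 libraries. It was 2 without control replicate 3 or Eif3m replicate 1 or 3, 3 without Eif3m replicate 2 and 4 without control replicate 1 or 2.

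Many genes of lipid synthesis fell with Eif3m siRNA. Of 33 genes of fatty acid and triglyceride synthesis, 18 fell, 1 rose (Pparg) and 14 did not pass, with a median of -0.38. Fasn, fatty acid synthase, stood at 749, 484 and 953 CPM in the controls and 193, 225 and 208 CPM with Eif3m siRNA, a log2 change of -1.80 (SE 0.23, adjusted p = 0.00304). Acacb, the mitochondrial acetyl-CoA carboxylase, stood at 119.8, 78.7 and 167 CPM in the controls and 25.7, 20.5 and 21.4 CPM with Eif3m siRNA, a change of -2.44 (SE 0.29, adjusted p = 0.00354). Acss2, which makes acetyl-CoA from acetate, stood at 277, 159.7 and 369.7 CPM in the controls and 66.3, 54.2 and 70.3 CPM with Eif3m siRNA, a change of -2.08 (SE 0.32, adjusted p = 0.00865). In all 3, control replicate 2 was the lowest control and control replicate 3 the highest, and the controls varied more than the Eif3m libraries. Aacs, acetoacetyl-CoA synthetase, changed by -2.16 (SE 0.16, adjusted p = 0.000302) and Gpam, the first enzyme of triglyceride synthesis, by -0.81 (SE 0.13, adjusted p = 0.00386). Thrsp, a lipogenic regulator, changed by -2.06 (adjusted p = 0.0204), a call lost without control replicate 1 (adjusted p = 0.0533) or Eif3m replicate 1 (0.0628) and with no filter on low counts (0.0604). Of 27 cholesterol synthesis and SREBP2 genes, 13 fell and 0 rose, with a median of -0.63. Insig1, which holds SREBP in the endoplasmic reticulum, stood at 228, 171 and 329 CPM in the controls and 81.0, 79.0 and 94.1 CPM with Eif3m siRNA, a change of -1.52 (SE 0.23, adjusted p = 0.00575). Sc5d, a late sterol enzyme, changed by -1.02 (SE 0.15, adjusted p = 0.00235). The summed level of the 27 genes was 3485 to 5780 CPM in the controls and 2475 to 3229 CPM with Eif3m siRNA, so these sums did not overlap. The cholesterol count was 7 without control replicate 1 or Eif3m replicate 1, 8 without control replicate 3 or Eif3m replicate 2, and 21 without control replicate 2. The fatty acid count was 11 without Eif3m replicate 1, and with the day 13 libraries in the fit 11 fatty acid and 8 cholesterol genes fell.

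SREBP binds the sterol regulatory element, searched as TCACNCCAC on both strands. It occurs in the 250 bases before the start of 1 of 19 cholesterol genes with a listed promoter, 1 of 29 fatty acid genes and 1.22% of all genes with one. The cholesterol gene is Hmgcs1, which encodes HMG-CoA synthase, and lies outside the rule for named genes. Its log2 change was -1.18 (SE 0.32, adjusted p = 0.048). The match is in capitals in the stretch at chr13:119690174-119690262 on the plus strand (RefSeq, GRCm38.p6), printed as the only match in a called gene of either list. Among called fatty acid genes with a listed promoter, 0 of 17 hold the element.
Hmgcs1: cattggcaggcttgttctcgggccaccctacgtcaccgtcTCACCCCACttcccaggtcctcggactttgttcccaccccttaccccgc

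Fatty acid oxidation was called in both directions. Of 41 genes, 13 fell and 3 rose, with a median of -0.22. Hadh, a mitochondrial oxidation enzyme, had a log2 change of -0.76 (SE 0.13, adjusted p = 0.00509) and Ehhadh, a peroxisomal one, by -0.73 (SE 0.15, adjusted p = 0.00874). Cpt1a, which admits fatty acids to mitochondria, rose from 190.2, 197 and 173 to 329.6, 249 and 319 CPM, a change of 0.68 (SE 0.11, adjusted p = 0.00356). Of 40 genes of glucose output, glycolysis and glycogen, 6 rose, 12 fell and 22 did not pass. Pck1, which commits carbon to gluconeogenesis, stood at 788, 1621 and 1442 CPM in the controls and 3412, 3497 and 3768 CPM with Eif3m siRNA, a change of 1.47 (SE 0.25, adjusted p = 0.00873). G6pc, glucose-6-phosphatase, stood at 17.0, 21.2 and 32.1 CPM in the controls and 67.6, 177 and 144 CPM with Eif3m siRNA, a change of 2.47 (SE 0.46, adjusted p = 0.0205). Both enzymes of glucose output were thus higher in every Eif3m library than in every control, with a wide spread in G6pc. The G6pc call was lost without control replicate 1 (adjusted p = 0.0725), control replicate 2 (0.0702), Eif3m replicate 2 (0.0501) or Eif3m replicate 3 (0.0513), and the Pck1 call without Eif3m replicate 2 (adjusted p = 0.0571) and with no filter on low counts (0.0574). Pfkfb1 and Pfkfb3, both of which set the level of fructose 2,6-bisphosphate, changed by -0.94 (adjusted p = 0.00255) and 1.19 (adjusted p = 0.00252). Igfbp2, an insulin-regulated binding protein, changed by 1.05 (SE 0.16, adjusted p = 0.00373), and Igfals, which carries circulating IGF, by -0.89 (SE 0.16, adjusted p = 0.00586). The glucose falls numbered 6 under library totals, 6 without Eif3m replicate 2 or 3 and 7 without control replicate 3 or Eif3m replicate 1, and the rises 3 without control replicate 2.

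Many genes of enzymes that clear drugs and other foreign compounds fell. Of 48 conjugation enzymes, 28 fell, 1 rose and 19 did not pass, with a median of -0.57. Gstt3, a theta-class glutathione transferase, stood at 109, 109 and 133 CPM in the controls and 16.8, 19.2 and 20.1 CPM with Eif3m siRNA, a log2 change of -2.64 (SE 0.11, adjusted p = 2.45e-06). Gstt1, of the same class, stood at 300.4, 287 and 293 CPM in the controls and 116, 97.9 and 126 CPM with Eif3m siRNA, a change of -1.37 (SE 0.10, adjusted p = 0.000105). Both genes were lower in every Eif3m library by a margin far larger than the spread within groups. Gsta4, Gstk1 and Mgst3 changed by -0.93 (adjusted p = 0.000228), -0.78 (adjusted p = 0.000581) and -1.01 (adjusted p = 0.000857). Of 46 P450 genes of families 1 to 3, 20 fell, 3 rose and 23 did not pass, with a median of -0.26. Cyp1a2, a pericentral P450, stood at 899, 962 and 919 CPM in the controls and 491, 491 and 591 CPM with Eif3m siRNA, a change of -0.82 (SE 0.095, adjusted p = 0.000838). Cyp2b10, a target of the nuclear receptor CAR, changed by -0.94 (SE 0.096, adjusted p = 0.000558) and Cyp2c29, by -0.81 (SE 0.11, adjusted p = 0.00174). Cyp2u1 was among the 3 that rose, at 0.96 (SE 0.14, adjusted p = 0.00225). Members of these families are similar in sequence, so reads may be shared among them. The P450 falls numbered 11 without control replicate 3, 13 without Eif3m replicate 2, 13 under library totals and 7 with the day 13 libraries, and the conjugation falls 18 with the day 13 libraries.

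In bile acid synthesis 10 of 20 genes fell, 0 rose and 10 did not pass. Cyp27a1, which opens the acidic pathway of synthesis, stood at 609, 488 and 519 CPM in the controls and 335, 254 and 302 CPM with Eif3m siRNA, a log2 change of -0.86 (SE 0.12, adjusted p = 0.00183). Akr1d1, the steroid reductase of bile acid synthesis, changed by -0.73 (SE 0.12, adjusted p = 0.00389) and Slc27a5, which activates bile acids for conjugation, by -0.74 (SE 0.10, adjusted p = 0.00177). Nr0b2, which encodes the bile acid-induced repressor SHP, stood at 42.9, 50.5 and 38.6 CPM in the controls and 15, 25.7 and 20.3 CPM with Eif3m siRNA, a change of -1.11 (SE 0.19, adjusted p = 0.00741). Of 45 hepatocyte transporters, 13 fell, 4 rose and 28 did not pass, with a median of -0.09. The count of rises was 2 without control replicate 3. Slco2b1, an organic anion uptake carrier, stood at 141, 142 and 166 CPM in the controls and 54.6, 49.4 and 57.2 CPM with Eif3m siRNA, a change of -1.48 (SE 0.094, adjusted p = 5.02e-05). Aqp8, an aquaporin, changed by -1.73 (SE 0.15, adjusted p = 0.000431) and Abcc3, a basolateral exporter of conjugates, by -1.10 (SE 0.16, adjusted p = 0.0028). None of these groups overlapped. Along the liver lobule, 13 of 26 pericentral genes fell and 1 rose, and 8 of 25 periportal genes fell and 2 rose, with medians of -0.46 and -0.11. The difference between the zones was not tested. With the day 13 libraries in the fit, 5 bile acid genes, 5 transporters and 1 periportal gene fell.

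**Figure D3:**
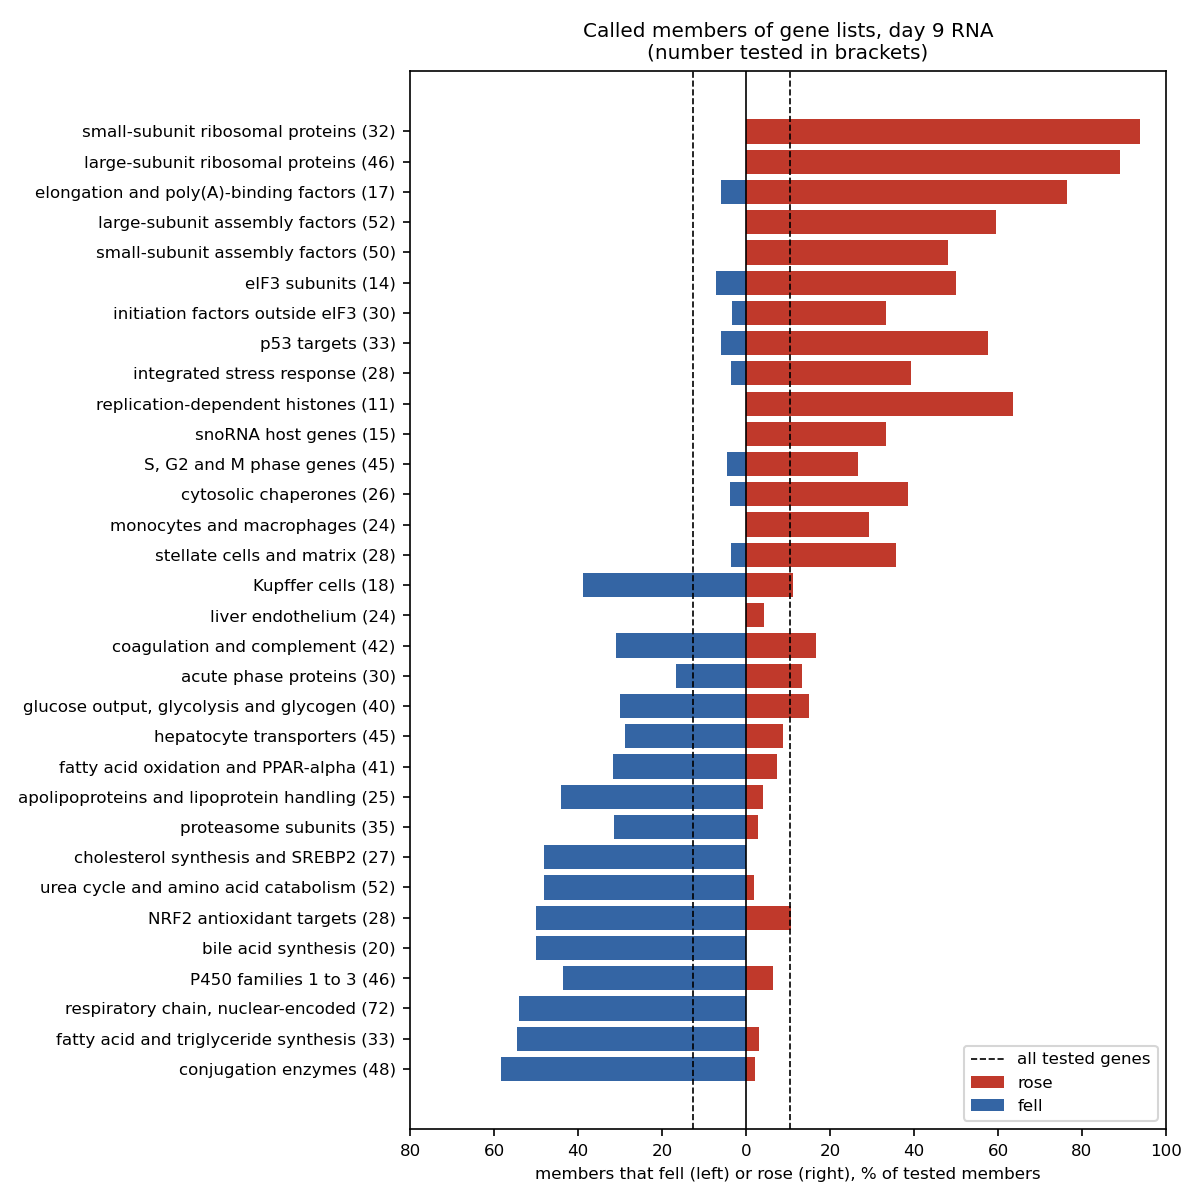
Share of tested members that rose (red, to the right) or fell (blue, to the left) in 32 gene lists, in percent, with dashed lines at the 10.5% of all tested genes that rose and the 12.7% that fell. These lines are not matched for abundance. Among genes of 100 to 1000 CPM, 373 of 1136 fell, and among those of 1000 CPM and over, 51 of 128. Ribosomal protein genes reach 93.8% and 89.1% rises, and conjugation enzymes have the longest bar of falls.

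Of 52 genes of the urea cycle and amino acid catabolism, 25 fell, 1 rose and 26 did not pass, with a median of -0.29. Prodh, proline dehydrogenase, stood at 279.5, 275 and 321 CPM in the controls and 95.8, 93.6 and 106 CPM with Eif3m siRNA, a log2 change of -1.57 (SE 0.092, adjusted p = 3.21e-05). Haao, of the pathway from tryptophan to NAD, stood at 470.4, 458 and 519.5 CPM in the controls and 209.5, 205 and 251 CPM with Eif3m siRNA, a change of -1.12 (SE 0.10, adjusted p = 0.000308). Ass1, the urea cycle enzyme argininosuccinate synthase, stood at 2679, 2483 and 3025 CPM in the controls and 1287, 1623 and 1733 CPM with Eif3m siRNA, a change of -0.82 (SE 0.12, adjusted p = 0.00247). Each of these was lower in all Eif3m libraries, and Ass1 was among the 10 falls with the largest difference in CPM. Hpd, of tyrosine breakdown, changed by -0.65 (SE 0.091, adjusted p = 0.0018) and Oat, ornithine aminotransferase, by -0.60 (SE 0.12, adjusted p = 0.0069). Aldh1l1, the abundant folate enzyme, went from 2355, 1874 and 2461 to 869.9, 999.8 and 1076 CPM, a change of -1.18 (SE 0.12, adjusted p = 0.000558). The count of falls was 12 without Eif3m replicate 1, 14 without control replicate 3, 16 under library totals and 8 with the day 13 libraries.

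Among 72 nuclear-encoded respiratory chain subunits, 39 fell, 0 rose and 33 did not pass, with a median of -0.26. Ndufa1, of complex I, stood at 51.3, 57.0 and 53.9 CPM in the controls and 31.3, 25.9 and 33.1 CPM with Eif3m siRNA, a log2 change of -0.84 (SE 0.10, adjusted p = 0.000924). Cox6c, of cytochrome c oxidase, changed by -0.55 (SE 0.086, adjusted p = 0.0028). All other falls were smaller than that of Ndufa1, with Ndufa3 next at -0.60 (adjusted p = 0.00178). The count was 16 under library totals, where the median was -0.13 beside 0.13 over all genes, and 6 with the day 13 libraries. It was 17, 19, 20 and 25 without Eif3m replicate 1, control replicate 3, Eif3m replicate 2 and control replicate 2. Of 76 mitochondrial ribosomal proteins 4 rose and 11 fell, a share of 19.7% that is close to the background. Under library totals 13 of these rose and 5 fell, with the day 13 libraries 1 fell, and the falls were 5 without control replicate 3 or Eif3m replicate 1 or 2, 6 without control replicate 2 and 7 without control replicate 1. Among 24 selenoproteins and antioxidant enzymes 11 fell and 1 rose. Sod1, the cytosolic superoxide dismutase, stood at 1038, 994 and 1021 CPM in the controls and 676, 559 and 726 CPM with Eif3m siRNA, a change of -0.64 (SE 0.10, adjusted p = 0.00313). Of 28 NRF2 targets 14 fell and 3 rose. Txn1, thioredoxin, changed by -0.77 (SE 0.089, adjusted p = 0.000838), while Hmox1, haem oxygenase, changed by 0.78 (SE 0.094, adjusted p = 0.000988). The proteasome (11 of 35 fell, 1 rose) and lysosome and autophagy genes (15 of 36 fell, 5 rose) were sensitive to scaling, with 3 and 6 falls under library totals. In the fit that includes day 13, 0 proteasome and 1 lysosome and autophagy genes fell. The NRF2 falls numbered 9 under library totals and without control replicate 3 or Eif3m replicate 2. Falls of proteasome genes ranged from 3 (without control replicate 3 or Eif3m replicate 1) upward when 1 library was left out, those of lysosome genes from 8 (without control replicate 3, Eif3m replicate 1 or Eif3m replicate 2), and antioxidant falls from 7 (without control replicate 2 or 3 or Eif3m replicate 2).

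Plasma proteins made by hepatocytes moved in both directions. Alb, albumin, stood at 133300, 128500 and 138600 CPM in the controls and 101500, 93230 and 103600 CPM with Eif3m siRNA, a log2 change of -0.42 (SE 0.083, adjusted p = 0.00684). Hpx, hemopexin, which carries free haem, stood at 4254, 3945 and 4462 CPM in the controls and 11230, 11360 and 11100 CPM with Eif3m siRNA, a change of 1.41 (SE 0.083, adjusted p = 3.23e-05). No library of either group overlapped in these 2 genes, and Hpx had the largest difference in CPM of all genes that rose. Ttr, which carries thyroxine, stood at 5672, 6017 and 5487 CPM in the controls and 3450, 3046 and 3675 CPM with Eif3m siRNA, a change of -0.76 (SE 0.094, adjusted p = 0.00111). Ahsg, fetuin A, changed by 0.42 (SE 0.082, adjusted p = 0.0069) and Mug1, a protease inhibitor of the alpha-2-macroglobulin family, by 0.83 (SE 0.19, adjusted p = 0.0183). Of 25 apolipoprotein and lipoprotein genes, 11 fell and 1 rose, with a median of -0.36. Apoa2, an HDL protein, stood at 5459, 5328 and 5041 CPM in the controls and 2561, 1849 and 2677 CPM with Eif3m siRNA, a change of -1.16 (SE 0.13, adjusted p = 0.000847). Apoc3, which slows the clearance of triglyceride, changed by -1.01 (SE 0.10, adjusted p = 0.000558) and Apoc1 by -0.63 (SE 0.097, adjusted p = 0.00266). Apoe, the ligand for remnant uptake, changed by -0.52 (SE 0.10, adjusted p = 0.00707). Lpl, lipoprotein lipase, which adult hepatocytes hardly make, was the gene that rose, from 6.78, 7.57 and 6.87 to 15.6, 13.8 and 11.8 CPM. Of 42 coagulation and complement genes 7 rose and 13 fell, with C8a, a chain of complement component 8, at 1.07 (SE 0.11, adjusted p = 0.000507) and C8g, its partner chain, at -0.72 (SE 0.097, adjusted p = 0.0015). Of 30 acute phase genes 4 rose and 5 fell, and without control replicate 2 or Eif3m replicate 3, 2 rose and 3 fell, and 3 fell without control replicate 3. Orm3, an orosomucoid close in sequence to Orm1 and Orm2, changed by -1.50 (SE 0.24, adjusted p = 0.00667). The calls for Alb, Ahsg and Apoe were lost with the day 13 libraries in the fit (adjusted p = 0.157, 0.201 and 0.142), and that for Mug1 without Eif3m replicate 1 or 2 (adjusted p = 0.0554 and 0.0924) and with no filter on low counts (0.0907). Coagulation rises were 3 without control replicate 3 or Eif3m replicate 1 and 4 without control replicate 1. The falls of that list were 3 without control replicate 3, 4 without control replicate 2 and 4 under library totals, 5 without Eif3m replicate 3, 7 without control replicate 1 or Eif3m replicate 2 and 2 with the day 13 libraries.

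Some resident macrophage genes fell, and some general macrophage genes rose. Of 18 markers of Kupffer cells, the macrophages that live in liver sinusoids, 7 fell, 2 rose and 9 did not pass. Clec4f, a lectin found on mouse Kupffer cells, stood at 139, 135 and 153 CPM in the controls and 37.0, 30.4 and 37.2 CPM with Eif3m siRNA, a log2 change of -2.03 (SE 0.10, adjusted p = 1.03e-05). Vsig4, a complement receptor, stood at 18.8, 20.7 and 27.4 CPM in the controls and 6.87, 6.61 and 5.69 CPM with Eif3m siRNA, a change of -1.80 (SE 0.15, adjusted p = 0.000218). Folr2, a folate receptor, stood at 9.35, 8.87 and 9.75 CPM in the controls and 3.28, 3.16 and 3.03 CPM with Eif3m siRNA, a change of -1.56 (SE 0.11, adjusted p = 9.16e-05). All 3 were lower in every Eif3m library, each by more than the spread within groups. Cd163, the scavenger receptor for haemoglobin, changed by -2.93 (SE 0.36, adjusted p = 0.0016) and Marco by -0.73 (SE 0.093, adjusted p = 0.0012). Other defining markers did not pass, among them Cd5l at 0.30 (SE 0.14, adjusted p = 0.165), Adgre1 at 0.39 (SE 0.13, adjusted p = 0.0568) and Timd4 at -0.51 (SE 0.18, adjusted p = 0.0634), so the list did not fall as a whole. Its summed level was 759 to 920.1 CPM in the controls and 736 to 839.7 CPM with Eif3m siRNA, which overlap. Of 24 monocyte and macrophage genes, 7 rose and 0 fell, and the summed level was 210.5 to 265 CPM in the controls and 294 to 318 CPM with Eif3m siRNA. Lgals3, galectin 3, stood at 3.88, 3.56 and 3.96 CPM in the controls and 10.5, 9.28 and 9.65 CPM with Eif3m siRNA, a change of 1.37 (SE 0.11, adjusted p = 0.000198). Lyz2, lysozyme of myeloid cells, stood at 13.6, 18 and 18.3 CPM in the controls and 42.7, 38.7 and 38.8 CPM with Eif3m siRNA, a change of 1.27 (SE 0.12, adjusted p = 0.000374). Both groups were again separate in the 2 genes. Gpnmb, a gene of lipid-laden macrophages, changed by 2.07 (SE 0.37, adjusted p = 0.00458) and Cybb, the phagocyte oxidase, by 0.84 (SE 0.15, adjusted p = 0.00514). No gene of these lists was at 0 in all libraries of a group. Cd5l, Adgre1 and Timd4 are given as markers of the cell types, not for how they moved. With only genes of at least 5 CPM tested, 3 of the 24 rose, and 12 did under library totals.

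**Figure D4:**
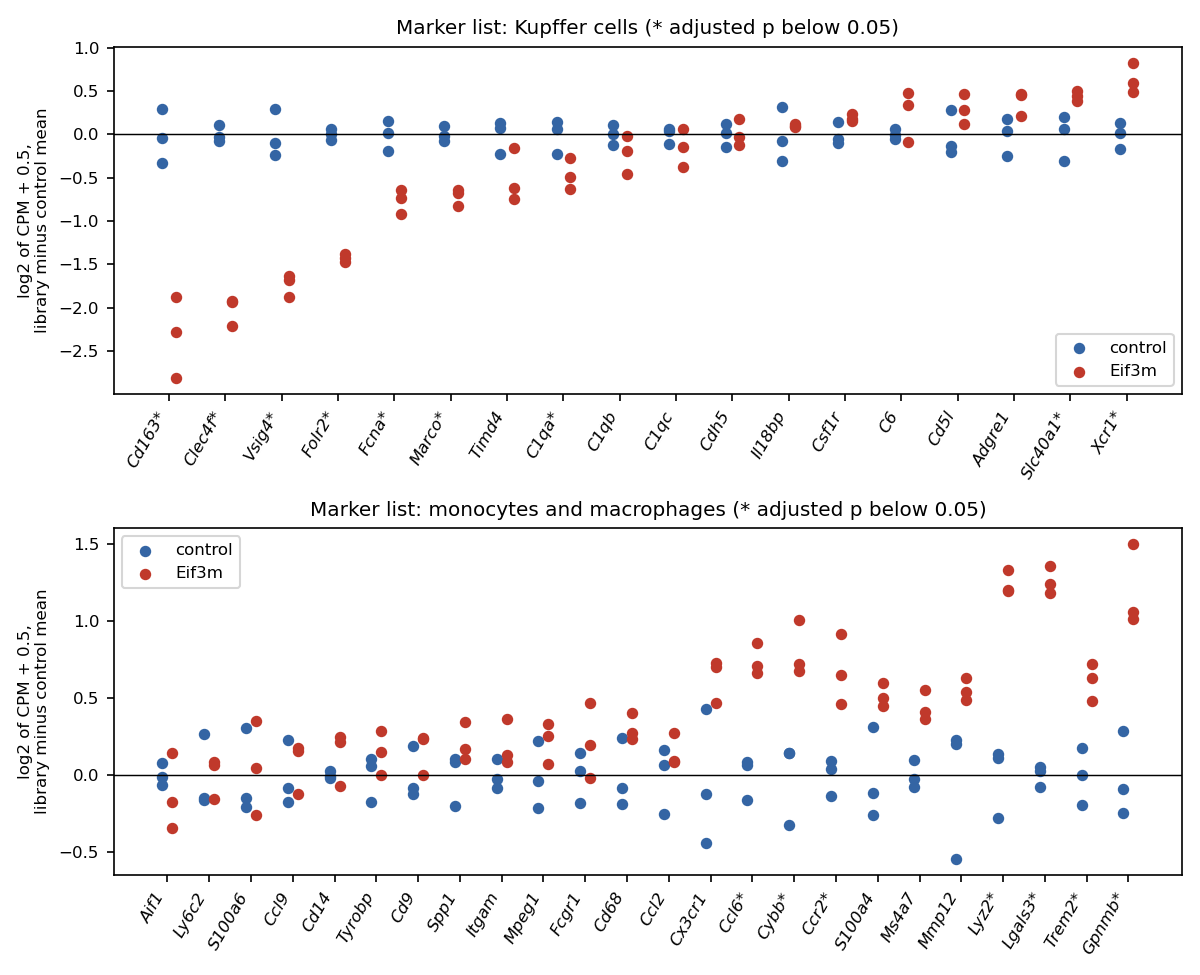
Level of each tested marker of Kupffer cells (top) and of monocytes and macrophages (bottom) in each library, as log2 of CPM + 0.5 minus the control mean, with genes ordered by their change and called genes starred. At the left of the upper panel Cd163, Clec4f, Vsig4 and Folr2 lie far below the controls in all 3 Eif3m libraries, while Cd5l and Adgre1 lie near or above them.

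Markers of other cell types in the organ are given by list. Of 28 stellate cell and matrix genes, 10 rose and 1 fell. Col3a1, a fibrillar collagen, stood at 62.2, 66.7 and 50.9 CPM in the controls and 120.4, 90.8 and 98.5 CPM with Eif3m siRNA, a log2 change of 0.78 (SE 0.13, adjusted p = 0.00384). Vim, vimentin, changed by 0.82 (SE 0.16, adjusted p = 0.00725). The defining markers of stellate cells did not pass. Their edgeR adjusted p was 0.925 for Lrat, 0.819 for Dcn, 0.328 for Des, 0.154 for Reln and 0.096 for Pdgfrb. The summed level of the list was 667 to 767 CPM in the controls and 808 to 939 CPM with Eif3m siRNA. The count of rises was 6 without control replicate 1 or 3 or without Eif3m replicate 1 and 2 with the day 13 libraries. Of 24 endothelial genes 1 rose, Lyve1, a hyaluronan receptor, at 1.26 (SE 0.24, adjusted p = 0.00686), and the list summed to 711 to 789 CPM in the controls and 744 to 839.6 CPM with Eif3m siRNA. None of 8 neutrophil and none of 13 cholangiocyte genes tested was called. Of 9 erythroid genes tested 1 fell, and of 15 lymphocyte genes 1 fell. Without Eif3m replicate 1, 6 of the 9 erythroid genes fell, and without any other single library 0 did. Those lists summed to 858 to 1113 CPM in the controls and 548 to 979.5 CPM with Eif3m siRNA for erythroid genes, and to 10.2 to 17.6 CPM in the controls and 10.8 to 16 CPM with Eif3m siRNA for lymphocyte genes. Each of these sums overlapped between groups apart from that of matrix genes. The share that such cells had in the changes of other genes was not tested.

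Interferon and antigen presentation genes moved both ways. Of 38 interferon-stimulated genes, 4 rose and 9 fell. Ifit1, an antiviral RNA-binding protein, stood at 5.35, 2.98 and 3.89 CPM in the controls and 1.70, 1.32 and 1.91 CPM with Eif3m siRNA, a log2 change of -1.30 (SE 0.24, adjusted p = 0.00542). Oasl1 changed by -1.79 (SE 0.24, adjusted p = 0.00149). Cxcl9, a chemokine induced by interferon gamma, stood at 4.45, 4.50 and 5.93 CPM in the controls and 12.1, 8.00 and 12.9 CPM with Eif3m siRNA, a change of 1.14 (SE 0.20, adjusted p = 0.00464), and Gbp2, also induced by it, changed by 0.74 (SE 0.12, adjusted p = 0.00359). Of 25 antigen presentation genes 6 rose and 3 fell. Ciita, the master factor of MHC class II, changed by 0.82 (SE 0.15, adjusted p = 0.00543). H2-Q7 and H2-Q1, class I genes with near-identical neighbours, changed by 1.33 (adjusted p = 0.00186) and -1.63 (adjusted p = 0.00537). The interferon falls were 5 without Eif3m replicate 3, and the rises 2 without control replicate 3, Eif3m replicate 1 or Eif3m replicate 3.

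Calls among signalling and hormone-responsive genes went in both directions, beside 23.2% of all tested genes that were called. Several lists were near or below that share, with 21.4% for TGF-beta, activin and BMP, 27.3% for mTORC1 and 13.0% for the clock. Growth hormone and STAT5 targets had 23.3% and fetal liver genes 7.14%. YAP targets had 38.5% and thyroid hormone and retinoid genes 53.1%. Of 28 genes of TGF-beta, activin and BMP signalling 6 rose and 0 fell (21.4%). Tgfbr1, a TGF-beta receptor, stood at 6.03, 7.52 and 6.37 CPM in the controls and 12.2, 11.7 and 10.8 CPM with Eif3m siRNA, a log2 change of 0.80 (SE 0.12, adjusted p = 0.00205), and Fst, the activin antagonist follistatin, changed by 1.20 (SE 0.25, adjusted p = 0.0122). The count was 3 without control replicate 3 or Eif3m replicate 1. Of 13 YAP targets 2 rose and 3 fell, with Ctgf at 1.40 (SE 0.23, adjusted p = 0.00307) and Cyr61, a partner in the same family, at -0.51 (adjusted p = 0.0411). The Cyr61 call was lost without any 1 of the 6 libraries (adjusted p between 0.05 and 0.114). Of 23 circadian clock genes 1 rose and 2 fell, and of 22 mTORC1 pathway genes 2 rose and 4 fell. The mTORC1 falls were 2 without control replicate 2 or 3 or Eif3m replicate 1 or 3, and the YAP falls 0 without control replicate 3 and 1 without any other single library. Of 32 thyroid hormone and retinoid genes 4 rose (2 without control replicate 3 or Eif3m replicate 1 or 3) and 13 fell, with Bco2, a carotenoid oxygenase, at -0.97 (SE 0.11, adjusted p = 0.000723) and Rdh16, a retinol dehydrogenase, at -0.71 (SE 0.11, adjusted p = 0.00259). Mt1, the zinc-binding metallothionein, stood at 193, 131 and 224 CPM in the controls and 71.0, 21.3 and 44.8 CPM with Eif3m siRNA, a change of -2.0 (SE 0.50, adjusted p = 0.0453). Its call was lost without control replicate 1, 2 or 3 (adjusted p = 0.118, 0.0702 and 0.0944), without Eif3m replicate 3 (0.109) and with no filter on low counts (0.107). Aco1, an iron-sensing protein, changed by -0.54 (SE 0.085, adjusted p = 0.00287). Of 14 fetal liver genes tested 1 rose, and of 30 growth hormone and STAT5 targets 1 rose and 6 fell. The falls of that last list were 3 without control replicate 2, and 2 without control replicate 3 and with the day 13 libraries.

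Ribosome footprints of the same 6 animals, the stretches of mRNA that ribosomes cover, gave a second readout. Fitted alone, 691 of 11522 tested genes rose (6.00%) and 775 fell (6.73%). Eif3m footprints changed by -3.60 on the log2 scale and Cdkn1a footprints by 5.16. In ribosomal protein genes the footprints rose in 30 of 43 large-subunit and 24 of 32 small-subunit genes tested. Their median footprint log2 changes were 0.755 and 0.82, beside 0.43 and 0.52 in RNA. Whether these medians differ was not tested. Fewer genes were called in footprints in general, 12.7% of those tested beside 23.2% in RNA. Rps12 changed by 2.02 in footprints beside 0.91 in RNA, a difference of 1.09 (SE 0.36, adjusted p = 0.515) that did not pass. Where the difference between the footprint change and the RNA change was tested itself, 4 of 14451 genes were called (0.0277%), 2 with a higher footprint change (0.0138%) and 2 with a lower one (0.0138%). They are named because the count is small, and Ftl1, LOC100862446, Eif4ebp2 and Ptp4a2 were chosen after their values were seen. Ftl1, ferritin light chain, whose mRNA is held back by iron regulatory proteins, had RNA at 1402, 1306 and 1351 CPM in the controls and 1109, 987 and 1184 CPM with Eif3m siRNA. Its RNA changed by -0.31 (SE 0.090, adjusted p = 0.0364) and its footprints by 1.01, a difference of 1.30 (SE 0.19, adjusted p = 0.0113). LOC100862446, a gene model whose counts nearly equal those of Ftl1, cannot be told apart from it. In Eif4ebp2, a repressor of cap-dependent initiation, and in Ptp4a2, a phosphatase, the footprints fell without an RNA call. With the animal as a block, which pairs the 2 libraries of each mouse, 19 genes were called. They include Fth1, ferritin heavy chain, also chosen after its values were seen, at 0.96 (SE 0.12, adjusted p = 0.000316). Leaving out 1 animal gave 0 calls without control replicate 2 or 3 or Eif3m replicate 1 or 3, 1 without control replicate 1 and 2 without Eif3m replicate 2.

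**Figure D5:**
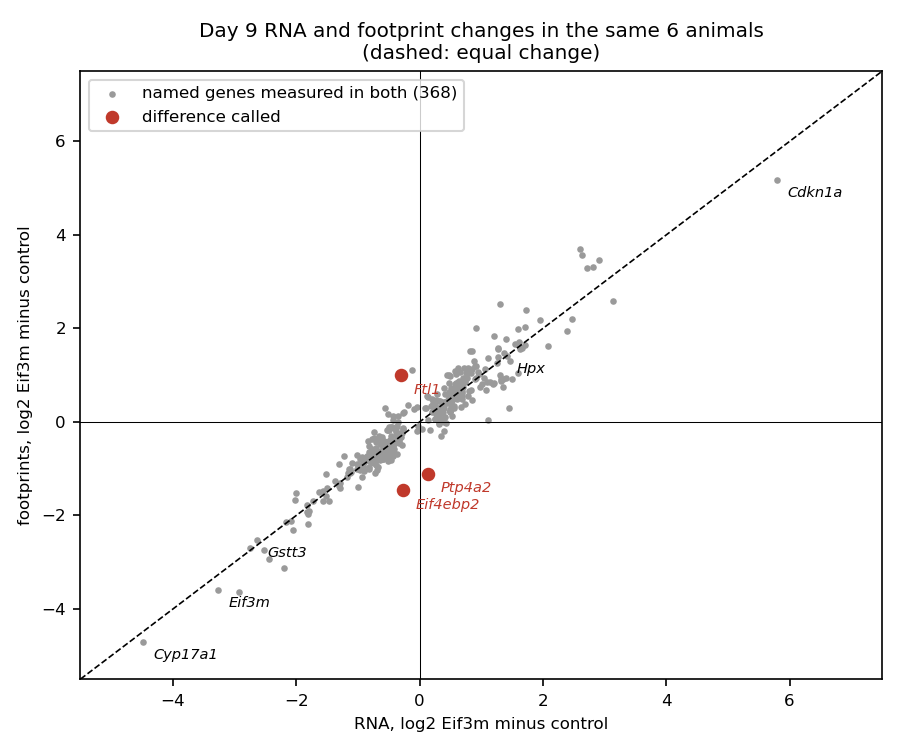
Log2 change in RNA (x axis) against log2 change in footprints (y axis) for the 368 named genes measured in both, with the line of equal change dashed. Most points lie near the line, and Ftl1, Eif4ebp2 and Ptp4a2, in red, lie off it.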

How the data were processed

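The authors deposited expected counts per gene symbol for the 20 libraries of the series, not normalized; in the day 9 RNA libraries 22.0% to 37.3% of the values above 0 are not whole. The submitters' processing notes name cutadapt, Bowtie and Bowtie2. Their versions and roles, the build, the annotation and how reads were counted were not given in the sources used here. Per the labels' protocols, RNA was purified with a Qiagen RNeasy kit and captured as mRNA with a KAPA kit. The day 13 libraries were made with another kit. The titles give each of the 6 mice a number of its own, shared by its RNA and footprint libraries.

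Expected counts were rounded to whole numbers, and groups were taken from the labels. The 6 day 9 RNA libraries were fitted alone in R 4.3.3 with edgeR 4.0.16 (filterByExpr, TMM scaling, robust quasi-likelihood F test, two-sided). Genes with a Benjamini-Hochberg adjusted p below 0.05 over the 14834 genes tested, of 38784 symbols, were called. The SE is the size of the log2 change divided by the square root of F. CPM divides by the library total times the TMM factor. Footprints were fitted in the same way, and the difference between the footprint and RNA changes was fitted as an interaction over all day 9 libraries, without an animal block.

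In simulated data of the RNA comparison (14661 genes), the test recovered 79.6% of genes changed 2-fold and 98.0% of those changed 4-fold, and 8.90% of its calls were false. For the footprints (11385 genes) it recovered 72.2% and 99.0%, with 6.74% false, and for the difference (14239 genes) 33.7% and 80.6%, with 5.08% false. Only a small share of genes was changed in each simulation, as many up as down. In the data 23.2% of genes tested in RNA were called, so these rates need not hold there.

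Members, the 67 gene lists and the tests were chosen with earlier results of these data known. Named genes are all eIF3 subunits, the 15 rises and 15 falls of largest log2 change among called genes with a mean of at least 5 CPM and no overlap, the 10 of largest CPM difference in each direction, up to 6 called members of a list (the 2 most abundant where none was called) and cell type markers. Uncharacterised gene models were counted only. Promoters came from RefSeq (GRCm38.p6), which held one for 10467 of the tested genes by symbol.

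Alternatives were library totals or DESeq2 1.42.0 size factors as scaling, 2 other filters, the DESeq2 test, both days in one fit, a replicate block, and each library left out. A group left with 2 libraries shares its spread with the other group.

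A few results are not reported here.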

Additional observations from a re-analysis of the deposited data

Results flagged for a closer look

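In 4 genes the change in ribosome footprints differed from the change in RNA by a test of the difference itself (edgeR, adjusted over 14451 genes, 3 animals per group). Ftl1, ferritin light chain, changed by -0.31 in RNA and by 1.01 in footprints on the log2 scale, a difference of 1.30 (SE 0.19, adjusted p = 0.0113). The gene model LOC100862446, whose counts nearly equal those of Ftl1 and cannot be told apart from them, also differed by 1.30 (SE 0.19, adjusted p = 0.0113). Eif4ebp2, a repressor of cap-dependent initiation, changed by -0.26 in RNA and by -1.47 in footprints, a difference of -1.22 (SE 0.19, adjusted p = 0.0234). Ptp4a2, a phosphatase, changed by 0.14 in RNA and by -1.10 in footprints, a difference of -1.27 (SE 0.18, adjusted p = 0.0113). Leaving out 1 animal left 0 to 2 genes called.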

How the results depend on the processing

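Scaling by library totals gave 3917 RNA calls beside 3445, but split them into 2810 rises and 1107 falls (71.7% rises beside 45.3%), with a median log2 change of 0.132 over all genes. That median was 0.018 with no filter beyond 1 count, and 0.016 without the 10 genes of largest CPM change in each direction, an alternative chosen after seeing the data. With the day 13 libraries in one fit, 932 genes were called (407 rises, 525 falls). Of these, 919 were among the 3445, in the same direction. The day 13 libraries were made with another kit, so their spread enters that fit together with a change of kit. The cause of the lower count was not tested. Leaving out 1 library gave 2182 to 3007 calls, 1034 to 1352 rises (45.0% to 48.1%) and 1148 to 1655 falls, with medians of -0.003 to 0.011. DESeq2 size factors gave 3436 calls, the DESeq2 test 3439, a mean of at least 5 CPM 2945 and no filter 3527. Control and Eif3m libraries of the same replicate number had deviations correlated at -0.09, -0.101 and 0.217, and only the third pair correlated best with its own number, so the numbers do not pair the groups. A replicate block gave 3145 RNA calls (1432 rises, 1713 falls). Footprint calls, 1466, became 2310 with library totals, 1082 with the replicate block and 754 to 2011 when 1 library was left out. The 4 genes whose footprint and RNA changes differed became 19 with the animal as a replicate block and 0 to 2 when 1 animal was left out. Of 391 named genes, 147 lost their call with both days in one fit, 21 with library totals and 28 to 48 when 1 library was left out. Krt19, a bile duct keratin, was not called (log2 change -0.15); leaving out 1 library gave -0.47 to 0.87, and it was called at 0.87 without control replicate 2, whose level was 4.26 CPM beside 1.06 and 1.11 CPM in the other controls. Depth limits rare mRNAs most, and genes under the count filter were not tested.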

Other observations

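Several gene lists not described above held smaller numbers of calls. Of 22 immediate early genes, 6 rose and 1 fell; the rises were 3 without control replicate 2 and 2 with the day 13 libraries in the fit. Jund, an AP-1 factor, stood at 51.7, 43.0 and 47.6 CPM in the controls and 69.5, 71.8 and 71.3 CPM with Eif3m siRNA, a log2 change of 0.58 (SE 0.082, edgeR adjusted p = 0.0018). Zfp36, which promotes decay of AU-rich mRNAs, was the one that fell, by a change of -0.82 (SE 0.12, adjusted p = 0.00228). Of 18 peroxisome biogenesis genes, 6 fell and 0 rose. Pex7, which encodes an import receptor, stood at 70.1, 77.5 and 76.0 CPM in the controls and 52.8, 48.6 and 57.3 CPM with Eif3m siRNA, a change of -0.50 (SE 0.083, adjusted p = 0.00359). Groups did not overlap in any of these genes.

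Of 25 metallothionein and iron genes, 5 rose and 7 fell, with Tmprss6, a protease that lowers hepcidin, at -0.62 (SE 0.085, adjusted p = 0.0016) and Slc39a14, a zinc and iron importer, at 0.40 (SE 0.070, adjusted p = 0.00422). Of 6 genes of the eIF2alpha kinases and phosphatase subunits, 2 fell, Eif2ak4 (GCN2) at -0.37 (adjusted p = 0.0139) and Eif2ak2 (PKR) at -0.40 (adjusted p = 0.0202). Both calls were lost under library totals (adjusted p = 0.0621 for Eif2ak4 and 0.0754 for Eif2ak2) and without control replicate 3 (0.0559 and 0.0762), and that of Eif2ak2 also without control replicate 2 or Eif3m replicate 2 or 3 (adjusted p between 0.0532 and 0.0731). With the day 13 libraries in the fit, the calls of both were lost (0.205 and 0.143), as were those of Jund, Zfp36, Tmprss6 and Slc39a14 (adjusted p between 0.0607 and 0.111). Of 25 genes of the IGF axis and insulin signalling 6 rose and 1 fell, of 31 nuclear receptors 2 rose and 5 fell, and of 28 hepatocyte transcription factors 4 rose and 3 fell. Of 31 apoptosis regulators 4 rose and 5 fell, of 30 splicing factors 3 rose and 1 fell, and of 25 plasma carriers 4 rose and 5 fell. Rises of the IGF axis were 3 without Eif3m replicate 2 and with the day 13 libraries. Iron rises were 3 without Eif3m replicate 1 or 2 and 2 without control replicate 3, where 4 fell. Rises of hepatocyte transcription factors were 2 without control replicate 2 or Eif3m replicate 1 or 3. Their falls were 0 without control replicate 2 and 1 without control replicate 1 or any of the Eif3m replicates. Apoptosis falls were 3 without control replicate 3 or Eif3m replicate 2 or 3, and splicing rises were 1 without control replicate 2 or 3 or Eif3m replicate 2 or 3. The background is 10.5% of tested genes that rose and 12.7% that fell.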
